A study of Mus musculus with 14 samples.

Results

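The liver makes most of the plasma proteins of complement and of blood clotting, and 41 of their genes were followed in whole liver of Pkd1 littermate mice. The genes form a named set, chosen with earlier results of these data known, and were found by symbol, 1 entry each, among the 57180 genes of the count table. All 41 also passed the filter on low counts that left 16201 genes for testing. They were read as 9 groups by role, which were the complement initiators, the C3 and C5 convertase components, the terminal pathway, the complement inhibitors, the vitamin K-dependent factors, contact activation, fibrin formation with its cofactor, serpins with plasminogen, and other plasma glycoproteins.

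The mice were classed by Pkd1 genotype as Homo (4 livers), Het (4 livers) and WT (6 livers), and all were kept on a normal chow diet. The genotype label of every group, WT included, names Cre. Neither the kind of Pkd1 allele nor the promoter driving Cre is named, so it is unknown which liver cells carried the alteration, and sex, age, litter and batch are not named either. Each library came from 1 numbered mouse.

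Complement is a chain of plasma proteases and adaptors that marks surfaces for removal. C1r and C1s, or the lectins with their MASP proteases, start it, C3 and C5 are cleaved in turn, and C5b to C9 form a pore in membranes. Clotting is a second protease chain in which vitamin K-dependent and contact factors lead to thrombin, which cuts fibrinogen to fibrin, while antithrombin, protein C and plasmin hold it back. Hepatocytes secrete most of these proteins, and in mice several of them rise in the acute phase, the response of the liver to interleukin-6.

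Total counts per library were 18573739 to 28431875 in Homo, 22833853 to 26245475 in Het and 25238140 to 40925973 in WT. Levels are in CPM, that is counts divided by the library total after TMM correction. Pkd1 itself averaged 25.3 ± 1.51 CPM in Homo, 32.2 ± 3.52 CPM in Het and 34.8 ± 2.77 CPM in WT livers (SD, n = 4, 4 and 6), and each Homo library lay below each WT library. Summed hepatocyte markers (10 genes, none at 0) spanned 71891 to 99730 CPM in Homo, 77119 to 86145 CPM in Het and 75117 to 91718 CPM in WT, so the 3 ranges overlapped. Lymphocyte markers (7 of 11 tested, none at 0) summed to 25.7 to 33.7 CPM in Homo, 23.9 to 25.6 CPM in Het and 15.05 to 23.0 CPM in WT, and platelet markers (5 of 10 tested, none at 0) to 19.8 to 27.2, 19.1 to 23.3 and 16.3 to 20.7 CPM. The 3 lymphocyte ranges did not overlap, with Homo highest and WT lowest, whereas the platelet ranges did overlap. The part of these cells in the results was not tested. In whole liver, more or fewer cells of a type cannot be told apart from more or less RNA per cell.

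Taken as a share of all counts, the 41 genes made up 4.26% to 4.77% of each Homo library, 3.93% to 4.80% of each Het library and 3.83% to 4.23% of each WT library. To set genes against each other, CPM was divided by the length of each gene's exons in kb. On this scale Ahsg, the plasma glycoprotein fetuin-A, had the highest level, at 3085 ± 516 CPM per kb in Homo, 2946 ± 248 in Het and 2909 ± 353 in WT (SD). C3, the protein on which all complement routes meet, had 1286 ± 90.7 in Homo, 1280 ± 304 in Het and 1178 ± 68.9 CPM per kb in WT. Fga, the fibrinogen alpha chain, had 1363 ± 272 in Homo, 1358 ± 269 in Het and 1161 ± 221 CPM per kb in WT. C3 and Fga stood next to each other in this order and did not differ beyond their spread. At the low end were C2, the protease of the classical C3 convertase, with 29.8 ± 2.28, 29.3 ± 3.14 and 27.5 ± 2.55 CPM per kb in Homo, Het and WT, and Pros1, the protein C cofactor protein S, with 10.1 ± 1.503, 11.3 ± 2.16 and 10.4 ± 1.09. The first 7 places, from Ahsg through Fgg, Vtn and Fgb to Plg, were held by the same genes in each genotype.

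No gene of the set was called in any comparison. In the fit over all 16201 genes (edgeR's quasi-likelihood test, Benjamini-Hochberg adjusted p under 0.05), 0 of 41 passed in Homo against WT, where 0.222% of all genes passed. Likewise 0 of 41 passed in Het against WT (0.0556% of all genes), 0 of 41 in Homo against Het (0.0309%) and 0 of 41 in the trend over WT, Het and Homo (0.185%). DESeq2 also called 0 of 41 in each. At an unadjusted p under 0.05 the numbers were 0 in Homo against WT (4.73% of all genes), 4 in Het against WT (4.67%), 0 in Homo against Het (5.1%) and 0 in the trend (4.72%). The 4 in Het against WT were C4b, Plg, Vtn and Hc, all higher in Het, where 2.36% of all genes were higher at that p. The smallest adjusted p of a member in these fits was 0.981, so it is not repeated for each gene, and the exact permutation tests below are two-sided, per gene and unadjusted. With 4 libraries against 6 they cannot give a p below 0.00476, and with 4 against 4 none below 0.0286.

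The intervals put a limit on what a genotype difference could be. In Homo against WT the 95% interval of the fold change lay within 0.667 to 1.5 for all 41 genes, with a median lower bound of 0.899 and a median upper bound of 1.17. In Het against WT this held for 40 of 41, with median bounds of 0.918 and 1.22, and the exception was C6, whose interval ran from 0.895 to 1.68. In Homo against Het it held for 40 of 41, with median bounds of 0.838 and 1.12, and C6 was again the exception, from 0.605 to 1.21. A p that misses the threshold does not show that levels are alike, and these intervals give the range that remains.

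Point estimates leaned to one side. In Homo over WT 29 of 41 log2 fold changes were above 0, with a median of 0.069, against 50.6% above 0 and a median of 0.0022 over all genes. In Het over WT 36 of 41 were above 0, with a median of 0.096, against 50% of all genes. In Homo over Het 10 of 41 were above 0, with a median of -0.043, against 50.5% of all genes. With 1 library left out the counts ran from 27 to 32, from 33 to 38 and from 5 (without Het 4) to 14, and the medians from 0.045 (without Homo 3) to 0.081, from 0.069 to 0.13 and from -0.070 (without Het 4) to -0.027 (without Homo 1). Scaling by library totals alone gave 34 of 41 in Homo over WT (62.1% of all genes), 33 of 41 in Het over WT (43.2%) and 26 of 41 in Homo over Het (66.2%). With this scaling most Homo over Het values lay above 0, as did most of those over all genes, so the lean below 0 was not kept. The first pair of comparisons share the WT livers and the last shares both mutant groups with them, so the counts are not independent. The 41 genes were measured in the same livers and are not independent of each other, so they do not count as 41 separate observations. Per library, the number of genes above their WT mean was 21, 26, 26 and 23 in Homo 1 to 4, and 37, 33, 34 and 20 in Het 1 to 4, against a lowest of 9, a median of 21.5 and a highest of 28 in WT. Het 4 stood with the WT and Homo livers and the other Het libraries stood above all WT libraries. Only C4b in Het separated from WT in every library, 1 of 41 genes, where 0.697% of all genes had every Het library above every WT library and 1.2% were without overlap in either direction. In Homo against WT 0 of 41 were without overlap, where 1.15% of all genes were, and in Homo against Het 0 of 41, where 2.94% were.

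**Figure D1:**
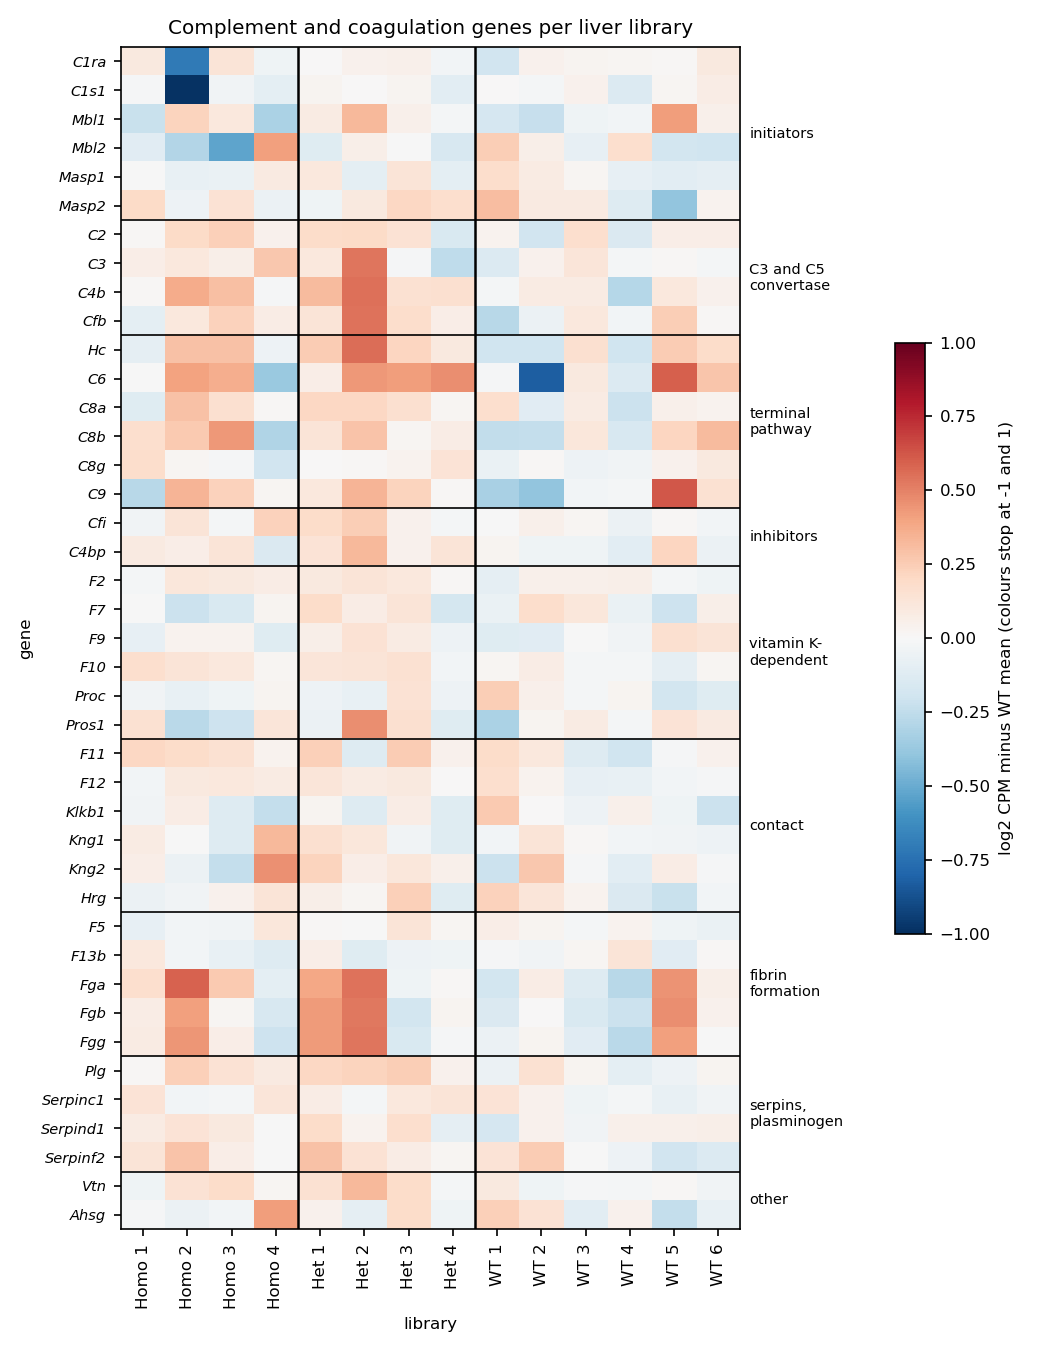
Log2 CPM minus the WT mean for the 41 genes (rows, grouped by role) in 4 Homo, 4 Het and 6 WT liver libraries (columns). Most cells are pale, and the darkest are C1s1 and C1ra in Homo 2, at 190 and 216 CPM, with C6 in WT 2.

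**Figure D2:**
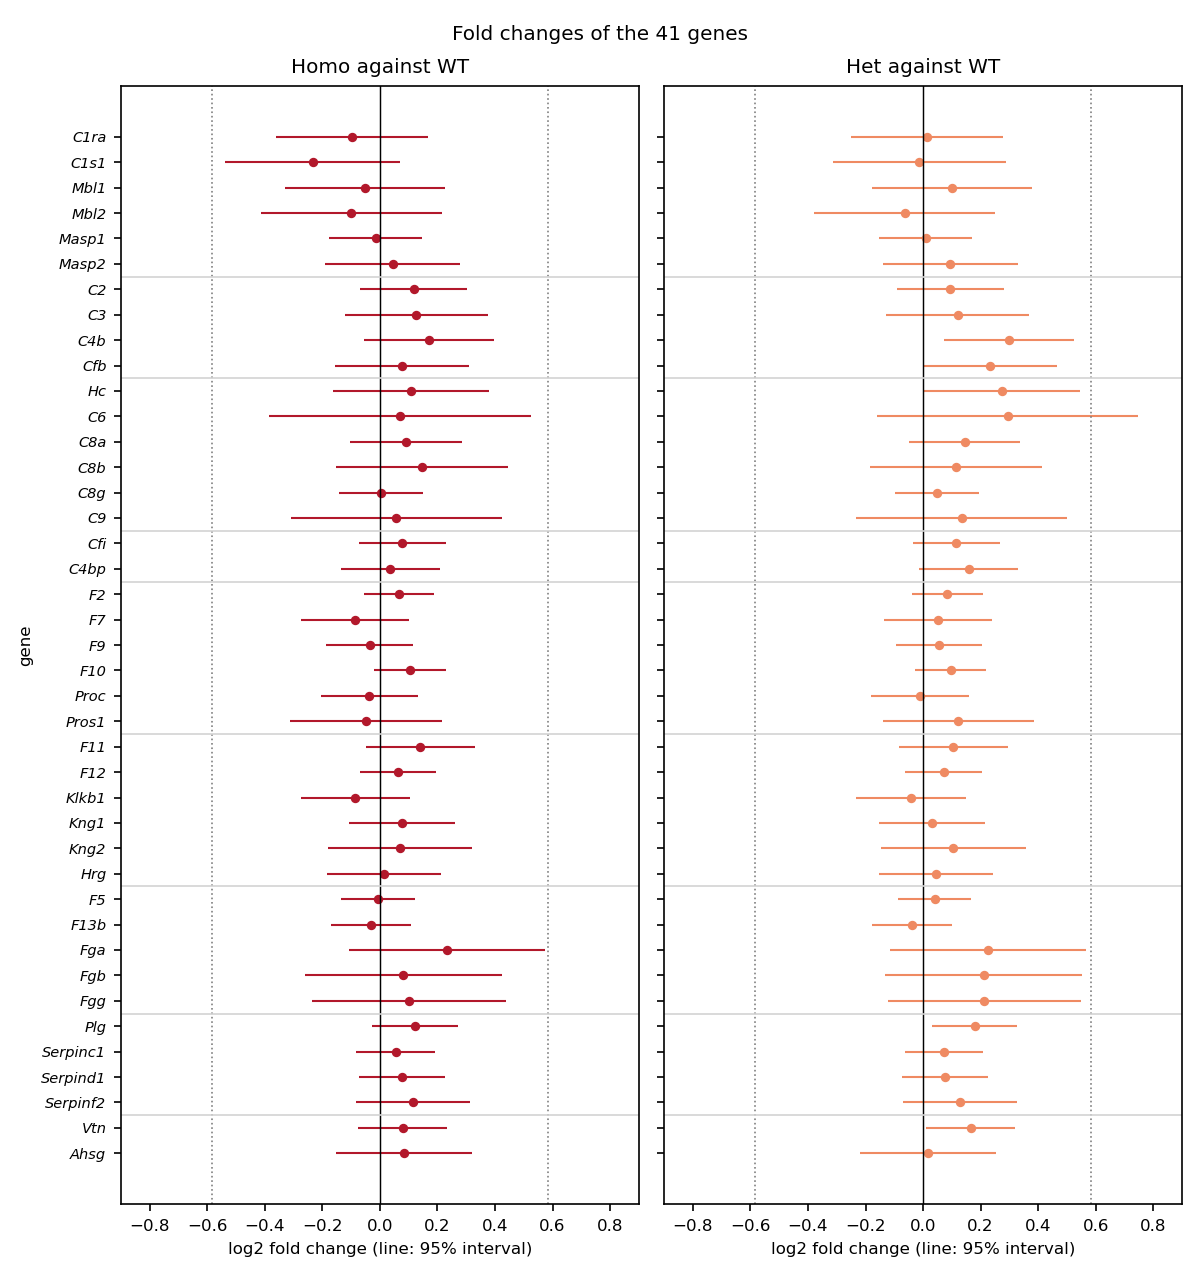
Log2 fold change of each gene in Homo against WT (left) and Het against WT (right), with 95% intervals as lines and dotted lines at folds of 0.667 and 1.5. All intervals lie within the dotted lines in Homo against WT, and all but that of C6 in Het against WT.

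Among the complement initiators, which recognise targets and make the first cuts, 1 of 6 log2 fold changes was above 0 in Homo over WT (median -0.075) and 4 of 6 in Het over WT (median 0.012). The first count was 3 without Homo 2 or without Homo 3, and 2 without Homo 4, WT 1 or WT 2, and the second was 2 (median -0.013) with library totals alone. C1ra encodes the protease C1r, which activates C1s, the product of C1s1, inside the C1 complex. C1ra had 378, 216, 385 and 342 CPM in Homo 1 to 4 and 353, 364, 366 and 346 CPM in Het 1 to 4, against 309, 358 and 377 CPM as the lowest, median and highest WT library. C1s1 had 374, 190, 370 and 353 CPM in Homo and 385, 379, 385 and 351 CPM in Het, against 345, 382 and 399 CPM in WT. Homo 2 was low for both genes, and the other 3 Homo livers lay within the WT range of C1s1 and near or within that of C1ra. C1s1 had a log2 fold change in Homo over WT of -0.23 ± 0.142 (SE, exact permutation p = 0.0667), and -0.051 without Homo 2. In Homo over Het it was -0.22 ± 0.155 (exact permutation p = 0.2), and -0.035 without Homo 2. That of C1ra in Homo over WT was -0.10 ± 0.124 (SE, exact permutation p = 0.614) and 0.059 without Homo 2.

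C1ra has a near copy close to it on chromosome 6, C1rb, whose transcript was 97.9% identical to that of C1ra. In the order of tested genes C1s1 lay between C1ra and C1rb. In Homo 2 C1rb had 138 CPM from 3371 estimated counts, against 0.041 to 0.41 CPM and at most 16.6 estimated counts in the other 13 livers. C1rb thus made up 38.9% of the summed C1ra and C1rb counts in Homo 2 and at most 0.115% elsewhere. The sum was 354 CPM in Homo 2, inside the 309 to 385 CPM of the other 13 livers. With the counts of both genes added, a choice made after C1rb had been seen, the log2 fold change in Homo over WT was 0.046. C1s2, the near copy of C1s1 (95.9% identical), had 13.6 estimated counts in Homo 2 and at most 5.58 in any other liver. All 10 tested neighbours, Clec4n to C1rl on one side and Lpcat3 to Ptpn6 on the other, had levels in Homo 2 within the range of the other livers. Homo 2 also had the highest sum of cholangiocyte markers, 67.5 CPM against 22.1 to 37.7 CPM in the other livers (6 of 8 markers tested, none at 0), and its part in the result was not tested.

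The coding sequences of C1ra and C1rb, aligned over 2121 columns, differed at 42 positions and 3 gap columns, and 50.3% of the 75-base windows of C1ra were also found in C1rb. Because C1ra and C1rb share so much sequence, how the estimated counts divide between them is uncertain. The stretch where they differ most, 13 of 90 bases, is shown because reads from it can tell the genes apart. It covers coding bases 1791 to 1880 of C1ra and 1788 to 1877 of C1rb in GENCODE M21, 5′ to 3′ on the coding strand, with the differing bases in capitals.
C1ra: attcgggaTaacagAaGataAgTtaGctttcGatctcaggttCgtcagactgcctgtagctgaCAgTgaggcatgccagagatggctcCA
C1rb: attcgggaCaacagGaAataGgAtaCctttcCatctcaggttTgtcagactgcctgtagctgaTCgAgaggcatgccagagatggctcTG

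**Figure D3:**
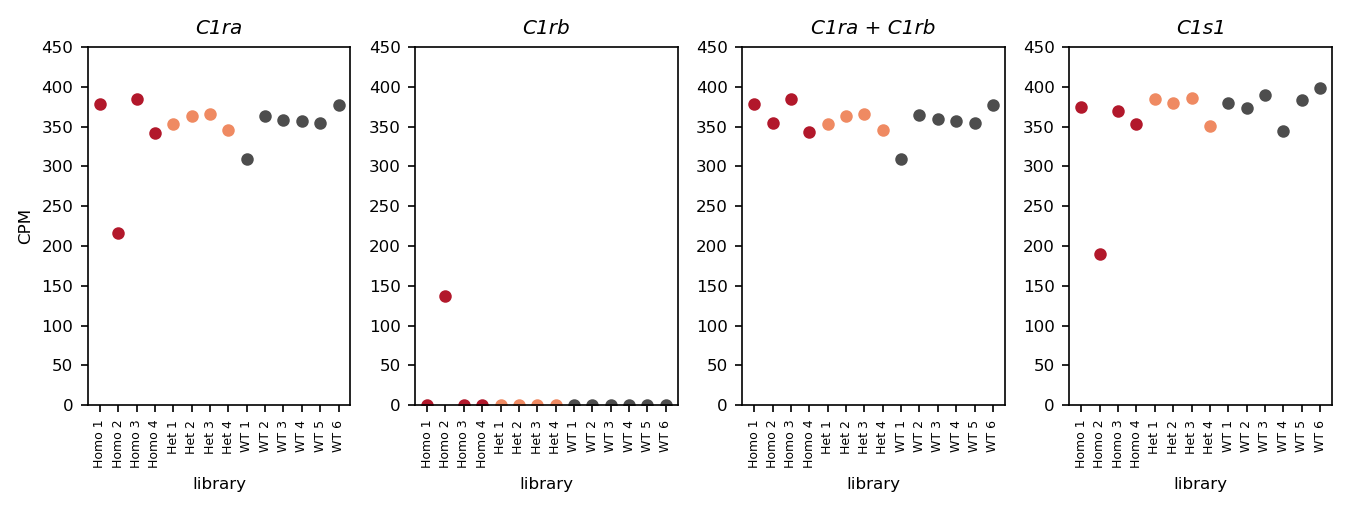
CPM of C1ra, C1rb, their sum and C1s1 in each liver, as 1 point per library with Homo left, Het in the middle and WT right. In Homo 2 C1ra is at 216 CPM, C1rb at 138 CPM, their sum at 354 CPM and C1s1 at 190 CPM.

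The lectin route begins with Mbl1 and Mbl2, the mannose-binding lectins, and Masp1 and Masp2, the proteases they carry. Mbl2 had 144, 127, 107 and 206 CPM in Homo and 143, 162, 155 and 139 CPM in Het, against 135, 154 and 184 CPM as the lowest, median and highest in WT. Homo 4 lay above and Homo 2 and 3 below the whole WT range, so the Homo livers surrounded the WT livers (log2 fold change -0.10 ± 0.147, exact permutation p = 0.486, and 0.022 without Homo 3). Per kb, Mbl2 exceeded Mbl1 in every liver, 1.37 to 3.53 times in Homo, 1.77 to 2.05 times in Het and 1.40 to 2.84 times in WT. The groups of Mbl1, Masp1 and Masp2 overlapped in the same way, with fold changes of 0.965 to 1.03 in Homo over WT and 1.01 to 1.07 in Het over WT.

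All 4 convertase genes, C2, C3, C4b and Cfb, lay above 0 in Homo over WT (median log2 fold change 0.12) and in Het over WT (median 0.18). Without Het 2 it was 3 of 4 in Het over WT, with a median of 0.089. C4b encodes complement C4, which binds covalently to surfaces and holds C2. C4b had 1222, 1568, 1493 and 1205 CPM in Homo and 1512, 1775, 1352 and 1358 CPM in Het, against 994, 1267 and 1305 CPM as the lowest, median and highest in WT. Every Het library was above every WT library, while Homo 1 and Homo 4 lay within the WT range. Its log2 fold change was 0.30 ± 0.106 in Het over WT (fold 1.23, 95% interval 1.05 to 1.44, exact permutation p = 0.00476, the smallest this design can give). Its adjusted p over all genes in edgeR's quasi-likelihood test was 0.993. In Homo over WT it was 0.17 ± 0.106 (exact permutation p = 0.2).

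C4a, the near copy of C4b that in mice encodes the sex-limited protein, varied far more. C4a had 82.4, 99.2, 97.0 and 37.4 CPM in Homo and 116, 245, 142 and 179 CPM in Het, against 45.5, 114 and 243 CPM in WT. Every Homo liver was below every Het liver for C4a, where 1.52% of all genes were. The WT range, 45.5 to 243 CPM, overlapped both groups. The lowest Homo liver, at 37.4 CPM, lay below it and the highest Het liver, at 245 CPM, above it. Homo over Het gave a log2 fold change of -1.11 ± 0.478 (exact permutation p = 0.0286, the smallest possible, and adjusted p = 0.958 in edgeR's test). Transcripts of C4a and C4b were 95.9% identical, so how the estimated counts divide between them is uncertain. Per kb, C4a was 0.029 to 0.062 of C4b in Homo, 0.070 to 0.127 in Het and 0.033 to 0.171 in WT.

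C3 had 6344, 6525, 6294 and 7299 CPM in Homo and 6517, 8755, 5986 and 5075 CPM in Het, against 5511, 6037 and 6585 CPM in WT. The Homo libraries sat in the upper part of the WT range or above it, and Het 2 and Het 4 were the highest and lowest of all livers. The log2 fold change was 0.13 ± 0.116 in Homo over WT (exact permutation p = 0.0476) and 0.12 ± 0.116 in Het over WT, which was -0.048 without Het 2. Cfb, factor B, the C2 counterpart of the alternative route, had 919, 1058, 1151 and 1036 CPM in Homo and 1075, 1430, 1106 and 1028 CPM in Het, against 812, 975 and 1163 CPM in WT. Het 2 was again the highest, and the groups overlapped. The log2 fold change was 0.23 ± 0.109 in Het over WT (exact permutation p = 0.1), 0.076 ± 0.109 in Homo over WT and -0.16 ± 0.12 in Homo over Het. Without Het 2 the first was 0.12 and the last -0.039, and without Homo 3 the second was 0.025. C2 had 107, 121, 125 and 109 CPM in Homo and 120, 121, 117 and 95.4 CPM in Het, against 92.9, 110 and 119 CPM in WT. Its log2 fold changes, 0.12 ± 0.0871 in Homo over WT and 0.094 ± 0.0871 in Het over WT, were close to their standard errors.

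These 4 genes and Plg lie on chromosome 17, as does Pkd1, and 28 of the 36 genes called in Homo against WT were placed there, which is 3.72% of the 753 tested genes of that chromosome. In gene order Pkd1 was number 150, Plg number 44, C4b 381, Cfb 388, C2 389 and C3 609. The nearest called genes to C4b were Zfp955b, with 56 tested genes between, and H2-T24, with 68 between, and none of the 20 genes on either side of C4b, Cfb, C2 or C3 was called. Plg had a log2 fold change of 0.12 in Homo over WT. The Pkd1 genotype and the alleles linked to it on this chromosome cannot be told apart.

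**Figure D4:**
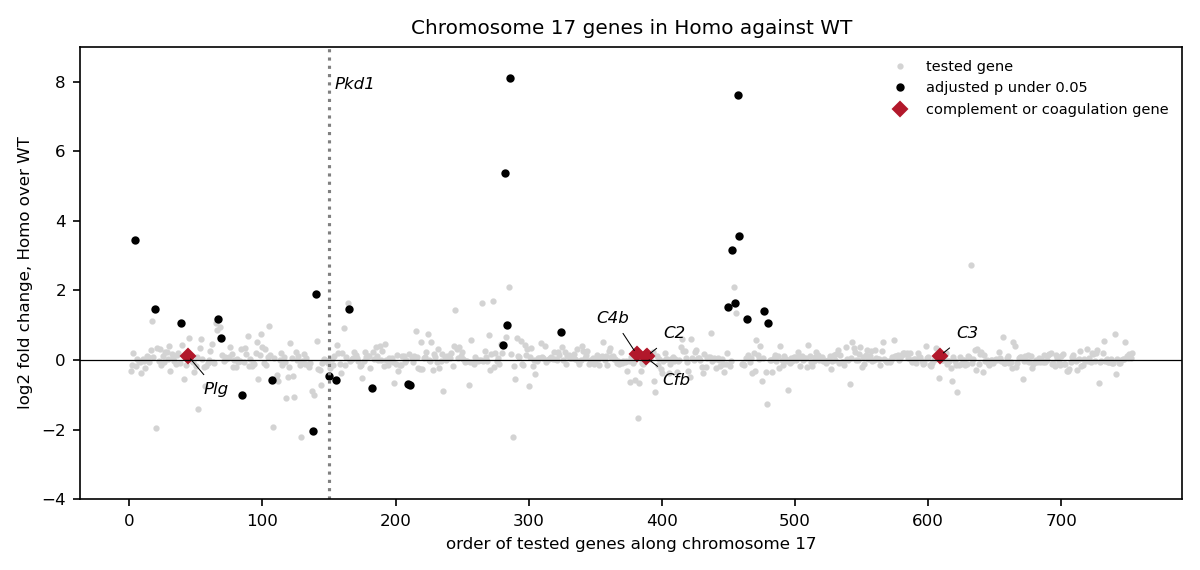
Log2 fold change in Homo over WT of the 753 tested genes of chromosome 17, in their order along it, with called genes in black and the 5 complement and coagulation genes as diamonds. The diamonds lie between 0.076 and 0.17, and the dotted line marks Pkd1.

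The 6 terminal pathway genes, whose products assemble the pore, lay above 0 in Homo over WT (median log2 fold change 0.079) and in Het over WT (median 0.14). Without Homo 2, 3 of 6 did so in Homo over WT (median 0.0057). Hc, the gene of C5, had 1080, 1412, 1408 and 1110 CPM in Homo and 1369, 1692, 1332 and 1231 CPM in Het, against 999, 1143 and 1375 CPM in WT. Homo 2, Homo 3 and Het 2 exceeded all WT livers and the rest fell within the WT range. Hc had a log2 fold change of 0.28 ± 0.127 in Het over WT (exact permutation p = 0.0857). For Homo over WT it was 0.11 ± 0.127 (exact permutation p = 0.443). Without Het 2 the first was 0.17, and without Homo 2 the second was 0.045. C9, which polymerises into the pore wall and had the highest level per length of this group, had 541, 830, 772 and 667 CPM in Homo and 706, 830, 766 and 662 CPM in Het, against 500, 645 and 1009 CPM in WT. WT 5 was the highest and WT 2 the lowest of all livers, so the WT group held the whole range. C9 had a log2 fold change of 0.057 in Homo over WT, and -0.034 without Homo 2. C6, which binds C5b first, had 297, 395, 385 and 231 CPM in Homo and 314, 402, 400 and 413 CPM in Het, against 169, 308 and 453 CPM in WT. Its coefficient of variation among WT livers, 30.4%, was the highest of the 41 genes, and WT 2 and WT 5 were again the lowest and highest. C8a, C8b and C8g, which encode the chains of C8, had folds of 1.00 to 1.11 in Homo over WT and 1.03 to 1.11 in Het over WT. C8g varied little in Het and WT, at 112 ± 4.90 and 108 ± 4.80 CPM, and more in Homo, at 108 ± 11.2 CPM (SD).

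The inhibitors Cfi, the factor I protease that destroys C3b and C4b, and C4bp, its C4b-binding cofactor, both lay above 0 in Homo over WT and in Het over WT (2 of 2). Cfi had 466, 524, 472 and 561 CPM in Homo and 543, 569, 492 and 473 CPM in Het, against 461, 481 and 497 CPM in WT, where its coefficient of variation of 2.62% was the lowest of the set. Mutant livers reached above the narrow WT range (Homo 2 and 4, Het 1 and 2) but others lay within it, with log2 fold changes of 0.078 ± 0.0709 in Homo over WT and 0.12 ± 0.0708 in Het over WT (exact permutation p = 0.219 and 0.0571). C4bp had 340, 334, 350 and 289 CPM in Homo and 351, 401, 330 and 350 CPM in Het, against 298, 310 and 372 CPM in WT. In Homo over Het its log2 fold change was -0.12 ± 0.0882 (exact permutation p = 0.229), with Homo 4 below and Het 2 above all other livers.

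Among the vitamin K-dependent factors, which need gamma-carboxylation to bind membranes, 2 of 6 lay above 0 in Homo over WT (median -0.036) and 5 of 6 in Het over WT (median 0.070). The first was 4 of 6 with library totals alone (median 0.0039) or the replicate block (median 0.028). With 1 library left out the medians ran from -0.037 to -0.0016 (without Homo 2) in Homo over WT, and from 0.037 (without Het 2) to 0.12 (without Het 4) in Het over WT. F2, prothrombin, had the highest level per length of the group. F2 had 1044, 1141, 1132 and 1113 CPM in Homo and 1129, 1154, 1137 and 1065 CPM in Het, against 991, 1066 and 1101 CPM in WT, an overlapping and narrow spread. Its log2 fold change was 0.066 ± 0.0575 in Homo over WT and 0.084 ± 0.0575 in Het over WT. F10, the protease that makes thrombin, had the smallest p of the set in Homo against WT. F10 had 312, 303, 298 and 281 CPM in Homo and 302, 304, 309 and 273 CPM in Het, against 261, 278 and 293 CPM in WT. Homo 1 to 3 exceeded all WT livers and Homo 4 did not, and the log2 fold change was 0.10 ± 0.0583 (fold 1.07, 95% interval 0.986 to 1.17, exact permutation p = 0.0333).

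F7, which starts clotting together with tissue factor, had 77.0, 66.6, 69.5 and 78.7 CPM in Homo and 87.6, 81.1, 84.7 and 68.2 CPM in Het, against 66.9, 77.0 and 87.1 CPM in WT. The 3 highest mutant values were Het 1 to 3, and in Homo over Het the log2 fold change was -0.14 ± 0.0966 (exact permutation p = 0.2). Pros1 had 46.9, 35.0, 36.6 and 45.8 CPM in Homo and 40.4, 58.3, 47.3 and 38.9 CPM in Het, against 34.0, 43.8 and 46.5 CPM in WT, with Het 2 the highest and no order by genotype. Its log2 fold change in Homo over Het was -0.17 ± 0.136 (exact permutation p = 0.4), and -0.038 without Het 2. F9, the factor missing in haemophilia B, and Proc, the gene of protein C, had folds of 0.976 and 0.975 in Homo over WT and 1.04 and 0.993 in Het over WT. Proc was the steadiest gene among Homo livers, with a coefficient of variation of 2.91%.

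The group read as contact activation held F12, Klkb1 (plasma prekallikrein), the kininogens Kng1 and Kng2, and F11. Hrg, the histidine-rich glycoprotein, was placed beside them by the grouping used here. In this group 5 of 6 lay above 0 in Homo over WT and in Het over WT, with medians of 0.066 and 0.058. Without Homo 4 it was 2 of 6 in Homo over WT (median -0.018). Kng1 had 1346, 1268, 1163 and 1589 CPM in Homo and 1419, 1371, 1239 and 1170 CPM in Het, against 1228, 1248 and 1390 CPM in WT. Homo 4 was the highest and Homo 3 the lowest liver, with a log2 fold change of 0.077 ± 0.0858 in Homo over WT, and -0.014 without Homo 4. Per kb Kng1 exceeded its near copy Kng2 (91.1% identical transcripts, so their division is uncertain) 6.68 to 7.93 times in Homo, 6.51 to 7.55 times in Het and 6.63 to 8.38 times in WT. F11, the protease that feeds contact signals into clotting by activating factor IX, had 106, 103, 101 and 93.7 CPM in Homo and 108, 83.7, 109 and 94.2 CPM in Het, against 79.6, 92.5 and 104 CPM in WT. The log2 fold change of F11 was 0.14 ± 0.0887 in Homo over WT (exact permutation p = 0.114), with only Homo 1 above the highest WT liver. Klkb1, F12 and Hrg had folds of 0.943 to 1.04 in Homo over WT and 0.971 to 1.05 in Het over WT.

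Fibrinogen is built from alpha, beta and gamma chains, whose genes Fga, Fgb and Fgg lie side by side on chromosome 3. The sequences around their start sites are shown because the 3 genes moved together among livers and the promoters of many acute phase genes hold the core CTGGGA of the interleukin-6 response element. They are RefSeq entries on GRCm38.p6, 250 bases before to 50 after the start, read 5′ to 3′ on the strand of the gene, with each CTGGGA, or its complement TCCCAG, in capitals. Fga covers chr3:83025903-83026202 (plus strand), Fgb chr3:83049814-83050113 (minus strand) and Fgg chr3:83007474-83007773 (plus strand).
Fga: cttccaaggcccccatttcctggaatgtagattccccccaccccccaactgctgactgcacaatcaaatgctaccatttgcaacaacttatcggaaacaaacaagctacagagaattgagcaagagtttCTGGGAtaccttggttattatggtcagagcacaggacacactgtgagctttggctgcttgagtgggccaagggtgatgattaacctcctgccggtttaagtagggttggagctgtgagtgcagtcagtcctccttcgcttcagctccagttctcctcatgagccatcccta
Fgb: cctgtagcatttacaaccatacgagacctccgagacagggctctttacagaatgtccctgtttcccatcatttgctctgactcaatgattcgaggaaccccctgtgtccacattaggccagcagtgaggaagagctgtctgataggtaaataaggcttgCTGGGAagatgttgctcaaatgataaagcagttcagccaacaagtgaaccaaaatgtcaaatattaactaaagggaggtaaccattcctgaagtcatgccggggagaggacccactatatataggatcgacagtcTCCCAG
Fgg: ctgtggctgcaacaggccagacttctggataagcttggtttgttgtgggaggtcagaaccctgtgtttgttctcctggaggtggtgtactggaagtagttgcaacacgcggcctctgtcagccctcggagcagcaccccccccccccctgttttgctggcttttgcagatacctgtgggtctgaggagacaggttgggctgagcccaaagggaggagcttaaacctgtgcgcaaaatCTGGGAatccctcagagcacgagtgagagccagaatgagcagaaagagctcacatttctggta

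Each of the 3 windows held the core, at base -121 from the start in Fga, at -91 and, on the other strand, at 44 in Fgb, and at -13 in Fgg. On either strand CTGGGA was found in 18 of the 33 set genes with a promoter entry (54.5%), against 31.8% of 32851 mouse promoters. The STAT palindrome TTCNNNGAA was in 8 of 33 (24.2%) against 8.3% of promoters, and the C/EBP core TTGCNNAA in 13 of 33 (39.4%) against 10.8%, and in Fga and Fgb but not Fgg. CAAAGTCCA, core letters of an HNF4 site, was in 0 of 33, against 0.475% of promoters. An HNF1 palindrome, also searched for, was in 0 of 33, against 0.00913% of promoters. The shares of the set count genes, whereas those of the background count promoter entries. A gene with more than 1 entry would have more chances of a match, so no excess is read from these shares. The motifs were picked after the fibrinogen promoters had been read, and a match is a description and not a site. Masp1, C2, C4b, Cfb, Cfi, Proc, Kng1 and Plg had no entry.

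Fga had 3880, 5186, 4131 and 3220 CPM in Homo and 4512, 5014, 3338 and 3482 CPM in Het, against 2846, 3371 and 4694 CPM as the lowest, median and highest in WT. Fgb had 3450, 4362, 3325 and 2936 CPM in Homo and 4414, 4742, 2894 and 3341 CPM in Het, against 2826, 3132 and 4532 CPM in WT. Fgg had 2298, 2947, 2273 and 1878 CPM in Homo and 2919, 3135, 1952 and 2156 CPM in Het, against 1802, 2122 and 2885 CPM in WT. For all 3 chains the highest 4 livers were Homo 2, Het 1, Het 2 and WT 5, 1 or more of each genotype, and WT 4 was the lowest. Fga had a log2 fold change of 0.23 ± 0.16 in Homo over WT (fold 1.17, 95% interval 0.927 to 1.49, exact permutation p = 0.219) and 0.23 ± 0.16 in Het over WT (exact permutation p = 0.233). Those of Fgb and Fgg were 0.081 ± 0.16 and 0.10 ± 0.158 in Homo over WT, and 0.21 ± 0.16 and 0.21 ± 0.158 in Het over WT. Without Homo 2 the Homo over WT values were -0.040 for Fgb and -0.029 for Fgg.

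The ratio between chains varied much less than the chains did. Per kb, Fgb over Fgg was 0.825 ± 0.0241 in Homo, 0.832 ± 0.0151 in Het and 0.832 ± 0.0324 in WT (SD), with a coefficient of variation of 2.95% over the 14 livers, where Fgg itself had 18.96%. Fga over Fgg was 1.17, 1.22, 1.26 and 1.19 in Homo 1 to 4 and 1.07, 1.11, 1.19 and 1.12 in Het 1 to 4, against 1.02 to 1.15 in WT. Every Homo liver was above every WT liver for this ratio, and Het 3 lay among the Homo livers. It was 1 of 7 ratios computed, chosen for mention after its values were seen, and it was given no test. The liver-level spread of the chains was set beside that of an acute phase gene. Saa1, serum amyloid A1, had 65.1, 556, 1044 and 43.0 CPM in Homo and 393, 2167, 140 and 291 CPM in Het, against 33.0, 203 and 1027 CPM in WT. Het 2, Homo 3 and WT 5 were its highest livers, followed by Homo 2 and Het 1. The livers highest for fibrinogen, Homo 2, Het 1, Het 2 and WT 5, were thus also among the highest for Saa1. Homo 3 lay below those livers for each chain, at 4131 CPM for Fga. WT 4 was the lowest liver for Saa1, as it was for the chains. The part of an acute phase response in the spread of fibrinogen was not tested.

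**Figure D5:**
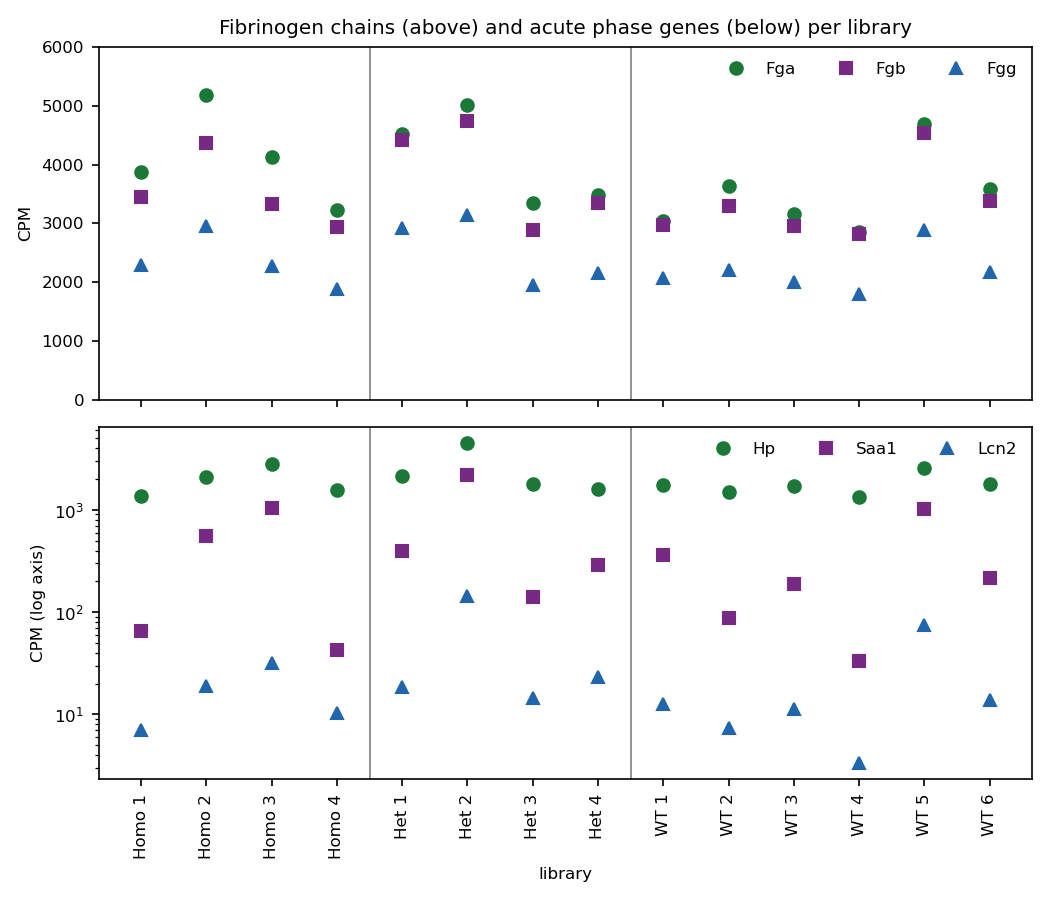
CPM of Fga, Fgb and Fgg (above) and of Hp, Saa1 and Lcn2 (below, log axis) in 4 Homo, 4 Het and 6 WT livers, as 1 point per gene and library. Fga, Fgb and Fgg are highest in Homo 2, Het 1, Het 2 and WT 5. Saa1 runs from 33.0 to 2167 CPM and is highest in Het 2, Homo 3 and WT 5, followed by Homo 2 and Het 1.

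F5, the factor V cofactor of the protease that makes thrombin, and F13b, the carrier chain of the enzyme that cross-links fibrin, showed none of that spread. F5 averaged 834 ± 51.0 CPM in Homo, 861 ± 37.6 CPM in Het and 837 ± 30.1 CPM in WT, and F13b 119 ± 8.47, 119 ± 6.47 and 122 ± 6.86 CPM (SD). Their folds in Homo over WT were 0.996 and 0.979, with 95% intervals of 0.911 to 1.09 and 0.890 to 1.08.

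The next group holds serpins that block clotting proteases or plasmin, and plasminogen, which as plasmin dissolves fibrin. All lay above 0 in Homo over WT (4 of 4, median log2 fold change 0.096) and in Het over WT (4 of 4, median 0.10). Plg, the gene of plasminogen, had 1662, 1942, 1828 and 1757 CPM in Homo and 1901, 1929, 1954 and 1702 CPM in Het, against 1540, 1636 and 1830 CPM in WT. Homo 2 and Het 1 to 3 exceeded the highest WT liver. Plg had a log2 fold change of 0.18 ± 0.0696 in Het over WT (fold 1.13, 95% interval 1.02 to 1.26, exact permutation p = 0.0238). For Homo over WT it was 0.12 ± 0.0697 (exact permutation p = 0.0905). Serpinc1 (antithrombin), Serpind1 (heparin cofactor II) and Serpinf2 (alpha-2-antiplasmin) had folds of 1.04, 1.06 and 1.08 in Homo over WT, and 1.05, 1.05 and 1.09 in Het over WT, and their groups overlapped.

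Vtn, vitronectin, which binds both the complement pore and the plasminogen activator inhibitor PAI-1, had 1834, 2090, 2142 and 1914 CPM in Homo and 2097, 2363, 2143 and 1862 CPM in Het, against 1830, 1868 and 2014 CPM in WT. Het 1 to 3 and Homo 2 and 3 lay above the highest WT liver. Its log2 fold change was 0.16 ± 0.0725 in Het over WT (fold 1.12, 95% interval 1.01 to 1.25, exact permutation p = 0.019), and for Homo over WT 0.080 ± 0.0726. Ahsg had 6300, 6109, 6227 and 8475 CPM in Homo and 6556, 5965, 7202 and 6162 CPM in Het, against 5374, 6289 and 7475 CPM in WT. Homo 4 alone exceeded the WT range, and the log2 fold change was 0.085 ± 0.111 in Homo over WT and 0.018 ± 0.111 in Het over WT. Without Homo 4 the first was -0.040, and the second fell below 0 without Het 3, WT 3, WT 5 or WT 6.

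The trend over WT, Het and Homo ranked first the same 5 genes as Homo against WT. The log2 change per genotype step was 0.055 ± 0.0289 for F10, 0.068 ± 0.038 for Plg, 0.072 ± 0.043 for F11, 0.10 ± 0.0604 for C4b and -0.11 ± 0.0705 for C1s1 (SE, each with an adjusted p of 0.998 in edgeR's test). Without Homo 2 the step of C1s1 was -0.025.

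The wider pathway was read from 107 further genes in 6 lists, of which 101 passed the filter, and 0 were called in Homo against WT, Het against WT or Homo against Het by edgeR's quasi-likelihood test or by DESeq2. At an unadjusted p under 0.05 in edgeR's test there were 7 of 101 in Homo against WT, 5 in Het against WT and 8 in Homo against Het, where 4.73%, 4.67% and 5.1% of all genes passed. Of 25 tested complement genes 15 lay above 0 in Homo over WT, and C1rb and C1qb had the smallest p. C1qb, a chain of the C1q recognition molecule made by Kupffer cells, had 36.2, 36.8, 34.3 and 33.7 CPM in Homo and 34.1, 29.4, 29.3 and 29.1 CPM in Het, against 27.6, 30.2 and 33.6 CPM in WT. All Homo livers were above all WT livers, where 0.735% of all genes and 2 of the 101 further genes were. The log2 fold change of C1qb was 0.22 ± 0.0691, with an adjusted p of 0.771 in edgeR's test. Summed Kupffer cell markers, a list that includes C1qb, were 305 to 328 CPM in Homo, 262 to 322 CPM in Het and 261 to 310 CPM in WT. C1rb had an adjusted p of 0.121 in Homo against WT and 0.0611 in the trend, with Homo 2 the only liver above 0.41 CPM.

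Of 28 tested coagulation and fibrinolysis genes 21 lay above 0 in Homo over WT. Serpine2, protease nexin 1, averaged 5.68 ± 0.972 CPM in Homo, 5.89 ± 0.718 in Het and 4.18 ± 1.21 CPM in WT, and Hgfac, the activator of hepatocyte growth factor, 200.4 ± 9.20, 180 ± 16.3 and 180 ± 18.0 CPM (SD). Of the 8 genes of the vitamin K cycle and of clotting factor secretion 3 lay above 0. Vkorc1, the reductase that recycles vitamin K and the target of warfarin, had 45.0, 43.2, 42.4 and 45.2 CPM in Homo and 46.5, 49.0, 41.5 and 43.2 CPM in Het, against 43.1, 49.98 and 53.0 CPM in WT. WT 6 was low among WT livers and overlapped the Homo livers, with a log2 fold change of -0.16 ± 0.0663 (exact permutation p = 0.0429, adjusted p = 0.998 in edgeR's test). Nqo1, a quinone reductase, averaged 1.17 ± 0.471 CPM in Homo, 1.82 ± 0.714 in Het and 1.79 ± 0.432 CPM in WT.

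Of 14 hepatocyte regulators of these genes 4 lay above 0 in Homo over WT, and 7 with the replicate block, with Esr1, the oestrogen receptor, at 57.5 ± 36.4, 52.5 ± 9.96 and 45.0 ± 11.6 CPM in Homo, Het and WT, and Foxa1 at 25.2 ± 5.56, 33.4 ± 8.01 and 30.0 ± 8.37 CPM (SD). Of 12 cytokine signalling genes 4 lay above 0, and 1 without WT 3 or 2 without WT 1 or WT 4.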

How the data were processed

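RNA was sequenced from 14 livers. Not given in the sources used here were strand use, annotation release and tool versions. Per the labels' protocols, liver RNA was extracted with Trizol and a Qiagen column and made into NuGen Ovation libraries. The authors deposited estimated counts per gene, made with STAR and Salmon on GRCm39 per the submitters' processing notes, and 6.36% to 8.59% of values per library were not whole (tolerance 0.01). They were rounded. Estimated counts divide reads among near copies by a model, which affects C1ra and C1rb, C4a and C4b, and Kng1 and Kng2.

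Genes were filtered with filterByExpr (count minimum 10, total minimum 15), scaled with TMM and fitted in 1 quasi-likelihood model over all 14 libraries in edgeR 4.0.16 (R 4.3.3), with adjustment over all 16201 genes and a threshold of 0.05. Fold intervals are at 95%. Permutation tests used log2 CPM with a prior count of 2. The fit was checked on simulated counts. P-values measure the spread between these mice. The closest libraries, Homo 4 and WT 4, gave a chi-square of 23.7 per degree of freedom, far beyond sampling noise, and each library counted once. Alternatives used RLE factors, library totals, no filter, DESeq2 1.42.0, sva 3.50.0, a replicate block, the compared groups alone, no chromosome 17 genes and each library left out.

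Chromosomes, gene order, exon lengths and coding sequences came from GENCODE M21 (GRCm38), a build other than that of the counts, so no gene coordinates from it are given. Promoters came from RefSeq (GRCm38.p6). Transcripts were compared with BLAST 2.17.0 and Biopython 1.88.

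The members and lists were chosen with earlier results of these data known. Genes with full statistics were those on chromosome 17, those with the highest level per length in their group, and the 5 with the smallest p in each comparison; from each further list, the 2 whose Homo against WT p was smallest. C4a was always given beside C4b. Saa1, C6, C8g, F5, F13b and the genes of the closing observations were named after their values were seen. Some genes that this rule selects are not reported here.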

Additional observations from a re-analysis of the deposited data

Results flagged for a closer look

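Dixon's rule set 1 liver apart from the others of its group in 10 of 123 sets of a gene and a genotype (8.13%). The rule divides the gap to the next liver by the range of the group, so small differences can be flagged. It flags about 5% by chance if values are normal and independent. The sets share livers and are not independent, so no excess is read from this share. Low livers were WT 1 for C1ra (309 CPM, others 355 to 377), Homo 2 for C1s1 (190 CPM, others 353 to 374), Het 4 for C2 (95.4 CPM, others 117 to 121), WT 4 for C4b (994 CPM, others 1200 to 1310) and Het 1 for C6 (314 CPM, others 400 to 413). High livers were Het 3 for Proc (398 CPM, others 342 to 347) and for F5 (917 CPM, others 837 to 846), and WT 2 for Kng1 (1390 CPM, others 1230 to 1280). WT 5 was high for Fgb (4530 CPM, others 2830 to 3380) and Homo 4 for Ahsg (8480 CPM, others 6110 to 6300). Among 4 genes outside the set checked the same way, Homo 2 stood apart for C1rb (138 CPM, others 0.265 to 0.384) and Het 2 for Saa1 (2170 CPM, others 140 to 393). WT 5 stood apart for Saa1 (1030 CPM, others 33.0 to 362) and for Hp, haptoglobin (2580 CPM, others 1330 to 1770).

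C1s1 in Homo 2 was the only member value more than 1.5-fold beyond all 13 other livers, where 0.963% of all genes were that far out in Homo 2.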

How the results depend on the processing

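None of the 41 genes was called under any alternative run, with smallest adjusted p-values (edgeR or DESeq2) of 0.707 in Homo against WT, 0.644 in Het against WT, 0.725 in Homo against Het and 0.646 in the trend; at an unadjusted p under 0.05 at most 2, 10, 1 and 5 passed. Counts over all genes moved more. In Homo against WT the 36 became 62 with DESeq2, 19 with the replicate block, 5 without chromosome 17 genes and 23 to 40 with 1 library left out (23 without Homo 1). In Het against WT the 9 became 23 with no filter, 32 with DESeq2, 4 without chromosome 17 genes and 8 to 11 with 1 library left out. In Homo against Het the 5 became 17 with DESeq2, 2 with the replicate block, 2 with the compared groups alone, 1 without chromosome 17 genes and 4 to 7 with 1 library left out. In the trend the 30 became 54 with DESeq2, 11 with the replicate block, 4 without chromosome 17 genes and 19 to 33 with 1 library left out (19 without WT 1 or WT 6). Leaving out chromosome 17 removes those genes by construction, and the other causes were not tested. The labels do not say whether replicate numbers pair the mice, and the values do not settle it. The 12 same-numbered pairs had r from -0.092 to 0.149, against -0.176 to 0.161 in 52 differently numbered pairs. Of 12 libraries 5 were closest to their own number, and the block called no member. The median level per length over the 41 genes, taken in each WT liver and averaged over WT livers, was 142 CPM per kb, and 156 with the longest transcript as length.

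Among chromosome 17 genes and those with the smallest p, these directions turned. C1ra in Homo over WT was 0.046 with C1rb added and -0.18 to 0.059 with 1 library left out (above 0 without Homo 2). Plg in Homo over Het was 0.0065 with library totals. With 1 library left out, C3 in Het over WT spanned -0.048 to 0.23 (below 0 without Het 2), C3 in Homo over Het -0.099 to 0.17 (below 0 without Homo 4, Het 3 or Het 4) and C2 in Homo over Het -0.051 to 0.063 (below 0 without Homo 3 or Het 4). Over all 41 genes, an extension chosen after seeing the data, 18 changed sign in Homo over WT with 1 library left out, 10 in Het over WT and 26 in Homo over Het, and 19, 10 and 29 under any alternative run, so 22, 31 and 12 kept their sign. The values of those that changed were at most 0.10, 0.12 and 0.11 in size with all libraries. The number of livers, 4 to 6 a group, limits what fold could be detected.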

Other observations

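Stat3, the transcription factor through which interleukin-6 acts on hepatocytes, had 77.9, 85.2, 77.5 and 76.6 CPM in Homo, against 92.2, 140, 99.1 and 122 CPM in Het. Every Homo liver was below every Het liver, where 1.52% of all genes and 2 of the 101 further genes were. The log2 fold change was -0.52 ± 0.171 (exact permutation p = 0.0286, the smallest possible, and adjusted p = 0.916 in edgeR's test). WT livers, at 70.1 to 131 CPM, overlapped both, and Het 2 lay above them. Of 16 acute phase genes 0 lay above 0 in Homo over Het (median log2 fold change -0.56) and 15 in Het over WT (median 0.38), where 50.5% and 50% of all genes did, and none was called in either. Both rested on Het 2, the highest liver for Saa1, and without it 11 of 16 lay above 0 in Homo over Het (median 0.064) and 9 of 16 in Het over WT (median 0.012). Saa4, a serum amyloid A of the steady state, averaged 616 ± 110 CPM in Homo, 1014 ± 294 CPM in Het and 823 ± 373 CPM in WT (SD, n = 4, 4 and 6), and Orm3 0.492 ± 0.169, 1.85 ± 0.957 and 0.905 ± 0.621 CPM. These genes are co-regulated and not independent of each other.

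Lman1, the cargo receptor that carries factors V and VIII out of the endoplasmic reticulum, had 286, 230, 264 and 277 CPM in Het, against 291, 311 and 352 CPM as the lowest, median and highest in WT. Every Het liver was below every WT liver (log2 fold change -0.27 ± 0.082, exact permutation p = 0.00476, the smallest possible, and adjusted p = 0.828 in edgeR's test), where 0.506% of all genes were. Homo livers had 262, 265, 297 and 317 CPM. C7, the terminal pathway gene outside the set, averaged 1.67 ± 0.462 CPM in Homo, 1.33 ± 0.241 CPM in Het and 0.926 ± 0.327 CPM in WT (SD), with an adjusted p of 0.827 in Homo against WT in edgeR's test.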
